A study of Mus musculus with 56 samples.

Results

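Amino acid and neurotransmitter transporters were examined in the anterior hypothalamus of mice fed only by day or only by night. Members were the genes of the deposited table whose mouse symbol begins with Slc1a, Slc3a, Slc6a, Slc7a, Slc36a, Slc38a or Slc43a. Of 17564 deposited genes, 57 carried such a symbol, and 54 of these reached a deposited value of 1 or more in 80% or more of the 56 mice, as did 16245 genes in all. Slc6a14, Slc6a19os and Slc7a15 did not reach that value. By family, 7 of the kept members belonged to Slc1, 2 to Slc3, 16 to Slc6, 12 to Slc7, 3 to Slc36, 11 to Slc38 and 3 to Slc43. One of them, Slc7a6os, is named for its place beside Slc7a6 and is no carrier, which leaves 53 carriers and carrier subunits. No expression value of a feeding contrast entered this rule, though it was set with earlier results of these data known.

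Day time-restricted feeding (DRF) gave food from zeitgeber time 0 (ZT0, lights on) to ZT12 (lights off), and night time-restricted feeding (NRF) gave it from ZT12 to ZT0. All mice were wild-type C57BL/6J females of 9 weeks on normal chow, kept on a cycle of 12 h light and 12 h dark and held on their regimen for 7 days. At each of 7 time points, 4 h apart from ZT0 to ZT24, 4 mice per regimen were sampled, so that each regimen held 28 mice and the mice at ZT24 were other animals than those at ZT0. Each regimen restricts the hours of feeding, so every difference below is between day-fed and night-fed mice and not from freely fed ones.

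These families differ in cargo and in partner. The Slc1 carriers clear glutamate from synapses into astrocytes and neurons or exchange small neutral amino acids, and the Slc6 carriers use the sodium gradient to take up GABA, glycine, monoamines, taurine, creatine and proline. Many Slc7 members are light chains that reach the membrane only with a heavy chain of the Slc3 family, while the cationic amino acid carriers of Slc7 work alone. Slc38 carriers move glutamine and other neutral amino acids with sodium, as in the glutamine shuttle from astrocytes to neurons. The Slc36 family includes proton-coupled carriers, and Slc43 members are facilitators. Several of these genes, Slc7a11 and Slc38a2 among them, are known targets of the transcription factor ATF4, which is made when amino acids run short.

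The normalized library size was 29591266 to 34493344 reads per mouse, and mice of one group correlated at 0.985 to 0.998 over genes in log2(CPM + 1), in 84 pairs. CPM, the reads of a gene scaled to a common library size, was recovered from the deposited values. The libraries of DRF ZT16 replicates 3 and 4 stood apart: their expression rose with GC content by 0.304 and 0.439 on the log2 scale per 10 percentage points, against -0.125 to 0.136 in the other libraries. Calls of members that rest on them are given with and without them. Values of cell markers and of lists of other genes are given with all libraries only. Markers of the anterior hypothalamus (Six6, Six3, Avp, Vip, Oxt, Lhx1 and Rgs16) were present in every mouse, with a summed level of 334 to 787 CPM in DRF and 369 to 792 CPM in NRF. Of 4 thalamus markers the sum ranged from 41.4 to 188 CPM in DRF and from 44.6 to 300 CPM in NRF, and of 4 striatum markers from 53.1 to 493 CPM and from 51.2 to 257 CPM, and their part in the results below was not tested.

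Promoters are shown for 4 members on which the results below turn: Slc7a11 and Slc38a2, whose night-fed rhythms had the widest amplitudes on the log2 scale among the called members, and Slc7a10 and Slc38a5, which were lower in DRF over the day. Each sequence is the 250 bases before the RefSeq start, 5′ to 3′ on the strand of the gene, on GRCm38.p6. Capitals mark a match to a searched motif. The windows are chr3:50443614-50443863 on the minus strand for Slc7a11, chr15:96699729-96699978 on the minus strand for Slc38a2, chr7:35186135-35186384 on the plus strand for Slc7a10 and chrX:8271131-8271380 on the plus strand for Slc38a5.
Slc7a11: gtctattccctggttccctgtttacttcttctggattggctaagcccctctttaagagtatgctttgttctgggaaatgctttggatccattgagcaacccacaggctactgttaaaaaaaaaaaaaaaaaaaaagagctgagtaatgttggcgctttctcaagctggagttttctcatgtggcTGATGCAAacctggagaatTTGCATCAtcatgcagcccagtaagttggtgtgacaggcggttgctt
Slc38a2: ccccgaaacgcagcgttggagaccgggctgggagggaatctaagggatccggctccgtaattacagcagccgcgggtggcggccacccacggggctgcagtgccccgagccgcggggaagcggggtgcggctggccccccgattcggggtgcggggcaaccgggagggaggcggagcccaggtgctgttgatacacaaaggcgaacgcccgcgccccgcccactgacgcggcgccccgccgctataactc
Slc7a10: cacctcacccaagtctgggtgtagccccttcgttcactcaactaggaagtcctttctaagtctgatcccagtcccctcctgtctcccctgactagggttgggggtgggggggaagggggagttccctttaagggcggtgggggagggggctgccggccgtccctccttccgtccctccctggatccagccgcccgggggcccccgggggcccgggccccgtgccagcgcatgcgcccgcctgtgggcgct
Slc38a5: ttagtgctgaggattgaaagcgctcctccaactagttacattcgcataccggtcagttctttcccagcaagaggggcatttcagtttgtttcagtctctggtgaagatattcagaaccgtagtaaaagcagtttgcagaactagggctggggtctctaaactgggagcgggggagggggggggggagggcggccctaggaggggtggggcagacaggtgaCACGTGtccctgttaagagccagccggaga

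The motifs searched, on both strands, were the core of the element bound by ATF4 and its C/EBP partners (TGATGNAA), the E-box bound by CLOCK and BMAL1 (CACGTG) and the D-box bound by DBP and its relatives (TTATGTAA). The RefSeq table held a promoter for 40 of the 54 members. The ATF4 core was in the windows of 2 of the 40 members (5.0%), Slc7a11 and Slc7a7, against 2.56% of the 12810 kept genes with an entry. In Slc7a11 it occurred at position -66 on the strand of the gene and at -47 on the opposite strand, counted to the first base before the start, and the capital runs above show both. The E-box was in the windows of 9 members (22.5%) against 9.31% of kept genes. These were Slc1a6, Slc1a7, Slc36a1, Slc38a5, Slc38a7, Slc43a1, Slc6a3, Slc6a16 and Slc7a14, and in Slc38a5 it began at position -30. The D-box was in 0 of the 40 windows, against 0.664% of kept genes. These are letter matches in short windows and not binding sites.

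Levels spanned a wide range per length. The mean over 56 mice in FPKM, the CPM divided by the gene length in kilobases, was above 10 for 22 members, from 1 to 10 for 17 and below 1 for 15, of which 6 were below 0.1. The GABA and glutamate carriers of astrocytes led. Slc6a11, the astrocytic GABA carrier GAT3, had 178 ± 12.7 FPKM (SD, n = 56), ahead of Slc1a3 (GLAST) with 93.5 ± 5.72 FPKM and Slc1a2 (GLT-1) with 88.1 ± 9.16 FPKM. The ranges of Slc1a3 and Slc1a2 over the mice overlapped, and the difference between these 2 genes was not tested.

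Slc1a1 (EAAC1, a carrier of glutamate and cysteine known from neurons) had 15.9 ± 0.87 FPKM. The glycine carrier of astrocytes, Slc6a9 (GlyT1), had 28.3 ± 2.13 FPKM, whereas Slc6a5 (GlyT2, of glycine neurons) had 0.036 ± 0.019 FPKM. The carriers that define monoamine neurons were low. Slc6a3, the dopamine carrier, had a median of 2.66 CPM and reached 27.7 CPM in replicate 4 of NRF ZT12. Slc6a4, the serotonin carrier, had a median of 0.0987 CPM, was at 0 in some mice and reached 2.59 CPM in replicate 2 of DRF ZT4. Slc6a2, the noradrenaline carrier, was not analysed here.

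The highest member per length was Slc3a2 (the CD98 heavy chain, 33.2 ± 1.88 FPKM) in Slc3, Slc7a10 (Asc-1, an exchanger of alanine, serine and cysteine, 24.8 ± 2.84 FPKM) in Slc7, Slc36a4 (15.99 ± 1.21 FPKM) in Slc36, Slc38a1 (the neuronal glutamine carrier SNAT1, 19.2 ± 1.18 FPKM) in Slc38 and Slc43a2 (the facilitator LAT4, 7.02 ± 0.61 FPKM) in Slc43. The rBAT heavy chain Slc3a1 was at 0.079 ± 0.038 FPKM. In CPM, the lowest, median and highest mouse were 653, 898 and 1096 for Slc6a11 in DRF and 818, 909 and 1015 in NRF. For Slc1a2 they were 826, 1148 and 1616 in DRF and 993, 1163 and 1319 in NRF, and the regimens overlapped throughout.

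**Figure D1:**
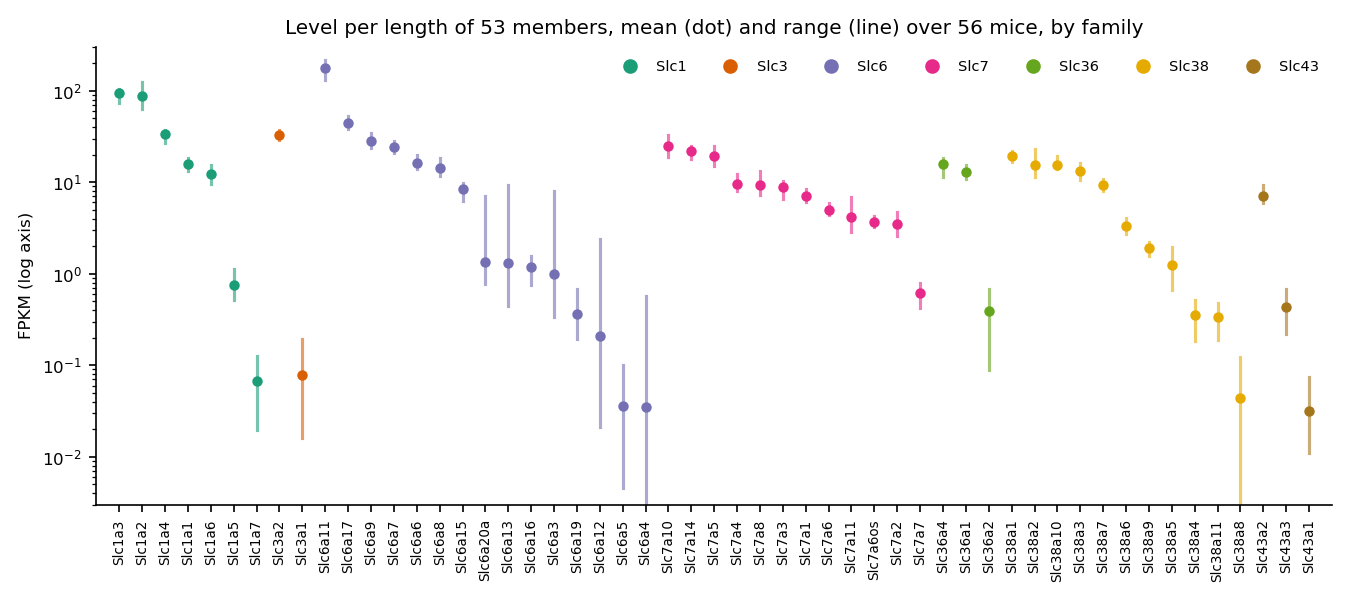
Mean level (dots) and range over 56 mice (lines) of 53 members in FPKM on a log axis, by family; lines that leave the bottom of the axis reach 0. Slc6a11 is highest with 178 FPKM, and 6 members lie below 0.1 FPKM.

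Several members were highest in 2 mice that were also highest in markers of the meninges. The sum of 5 markers of meningeal fibroblasts (Dcn, Lum, Col1a1, Col1a2 and Aldh1a2) was 145 CPM in NRF ZT20 replicate 4 and 122 CPM in DRF ZT0 replicate 3, and the next highest mouse had 55.7 CPM. Slc6a13 (the GABA carrier GAT2, known from the meninges) had 26.8 and 21.1 CPM in those mice, against a median of 3.01 CPM over all mice. Slc6a20a (an imino acid carrier) had 23.5 and 28.9 CPM against a median of 4.53 CPM, and Slc6a12 (the betaine carrier) had 6.56 and 7.32 CPM against 0.378 CPM. Slc7a11 was also high there, at 96.9 and 77.7 CPM, the highest mouse of each regimen. The part of this tissue in the results below was not tested.

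The first comparison asked which carriers cycle over the day in each regimen. Night-fed mice showed a rhythm (adjusted p-value under 0.05) in 17 of the 54 members (31.5%), beside 27.7% of all 16245 genes tested. In DRF, 0 of the 54 were rhythmic, beside 0.813% of all genes. The test combined JTK_CYCLE and the Lomb-Scargle periodogram, with Benjamini-Hochberg adjustment over all genes of the regimen. The lowest adjusted p-value of a member in DRF was 0.436, for Slc38a5, and 4 members had an unadjusted p-value under 0.05 there (7.41%, beside 4.33% of genes). JTK_CYCLE alone called 16 members in NRF (beside 26.0% of genes) and 0 in DRF (beside 0.376%). Without the libraries that stood apart, 1 member, Slc38a3, was called in DRF (beside 0.708% of genes).

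The 17 rhythmic members split into those highest from the day to early night and those highest later in the night. From fitted 24-h cosines on log2(CPM + 1), 9 members peaked between ZT3 and ZT15 and 8 between ZT15 and ZT24, against 37.0% and 61.0% of all genes called in NRF. The group from day to early night held Slc7a10, Slc38a3, Slc38a5, Slc1a4, Slc7a5, Slc3a2, Slc6a6, Slc6a8 and Slc1a5. Both chains of the LAT1 exchanger were among them, with fitted peaks by day for Slc7a5 (ZT10.4) and after lights off for Slc3a2 (ZT13.1). The later group held Slc38a2, Slc7a11, Slc7a2, Slc38a9, Slc38a1, Slc1a1, Slc1a2 and Slc6a13. The median amplitude of the 17 on the log2 scale was 0.178 in NRF and 0.0626 in DRF. The members were picked by the NRF rhythm here, so their larger amplitude in NRF is no test. Over all 54 members the medians were 0.0773 and 0.0648, beside 0.0728 and 0.0559 over all genes tested.

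Slc7a5, the large neutral amino acid exchanger LAT1 (NCBI Gene 20539, GRCm38 chromosome 8 from 121881146 to 121907686), had the lowest adjusted p-value in NRF, 5.18e-07. Its CPM in the 4 NRF mice was 57.9, 58.2, 59.7 and 63.3 at ZT0, rose to 80.4, 79.6, 82.4 and 82.5 at ZT8 and to 93.3, 93.3, 79.999 and 73.8 at ZT12, and was 59.8, 55.2, 56.0 and 58.4 at ZT24. Every NRF mouse at ZT8 and ZT12 was above every NRF mouse at ZT0 and ZT24. In DRF all 28 mice lay between 61.8 and 85.8 CPM, with a fitted amplitude of 0.02 on the log2 scale against 0.28 in NRF. Its heavy chain Slc3a2 had a smaller rhythm in NRF (amplitude 0.06, adjusted p = 9.72e-04), with the highest mean at ZT16, 125 ± 1.58 CPM (SD, n = 4 mice), and the lowest at ZT24, 107 ± 3.29 CPM. In DRF the means of Slc3a2 at those times were 125 ± 7.44 and 107 ± 4.22 CPM. The DRF mean at ZT16 includes the libraries that stood apart. The difference DRF minus NRF at ZT16 was 0.0029 on the log2 scale with them and -0.067 without them.

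Slc38a2, the amino acid-regulated carrier SNAT2 (NCBI Gene 67760, chromosome 15 from 96687392 to 96699728), had the largest fitted amplitude in NRF among the called members. In NRF it was 102, 104, 111 and 107 CPM at ZT8 and 180, 202, 175 and 178 CPM at ZT16, and the groups did not overlap (adjusted p for the rhythm 8.37e-07, fitted peak ZT17.9, amplitude 0.41). The promoter printed above for it holds none of the motifs searched. Slc7a11, the cystine-glutamate exchanger xCT (NCBI Gene 26570, chromosome 3 from 50364936 to 50499087), was lowest at the same time, with 44.6, 39.3, 48.5 and 45.4 CPM at ZT8, and reached 62.6, 65.5, 62.6 and 96.9 CPM at ZT20 and 61.0, 65.1, 78.2 and 70.2 CPM at ZT24 (adjusted p = 5.24e-06, peak ZT19.8, amplitude 0.32). The mouse at 96.9 CPM is the one rich in meningeal markers, and without replicate 4 of every group the member stayed among those called. Slc7a2, a cationic amino acid carrier (CAT2), followed a like course in NRF, from 26.2 ± 1.27 CPM at ZT8 to 35.8 ± 4.90 CPM at ZT20 (adjusted p = 4.11e-05).

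Slc7a10, which exchanges alanine, serine and cysteine in astrocytes (NCBI Gene 53896, chromosome 7 from 35186095 to 35201116), had 61.2, 63.0, 61.2 and 69.7 CPM at ZT8 and 45.4, 48.8, 46.6 and 44.8 CPM at ZT20 in NRF (adjusted p = 7.45e-07, peak ZT6.78). Slc38a3, the astrocytic glutamine carrier SNAT3, had 82.9 ± 2.83 CPM at ZT8 and 63.1 ± 4.37 CPM at ZT20 (adjusted p = 9.09e-07, peak ZT6.71). Both of these astrocyte carriers were thus highest by day and lowest late at night in night-fed mice. Slc38a3 is the member called in DRF without the libraries that stood apart, where its means were 74.9 ± 5.66 CPM at ZT12 and 60.8 ± 3.35 CPM at ZT20 with all mice. Slc6a8, the creatine carrier, peaked later in NRF, with 86.9 ± 6.25 CPM at ZT12 and 65.9 ± 3.60 CPM at ZT24 (adjusted p = 1.11e-04). Slc1a5, the glutamine exchanger ASCT2, was scarce, with 2.45 ± 0.17 CPM at ZT0 and 3.65 ± 0.32 CPM at ZT16 (adjusted p = 5.02e-04). Slc38a9, an arginine sensor of the lysosome, had 28.7 ± 1.39 CPM at ZT8 and 33.9 ± 0.80 CPM at ZT24 (adjusted p = 2.39e-04).

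The other 7 members called in NRF had adjusted p-values from 0.00272 (Slc38a5) to 0.0399 (Slc1a2). In Slc1a2 the lowest and highest means, 1055 ± 45.8 CPM at ZT0 and 1283 ± 33.5 CPM at ZT24, belong to the same clock time in different mice, so its range is not one of the time of day. Slc6a13 was lowest at ZT12, at 1.87 ± 0.18 CPM, and its highest mean, 8.61 ± 12.1 CPM at ZT20, rests on the meningeal mouse. Without replicate 4 of every group Slc6a13 was still called. The members not called included the abundant carriers Slc6a11, Slc1a3, Slc6a9 and Slc6a17. The number called in NRF was 11 without ZT16 and 10, 11 and 11 without replicates 1, 2 and 3. The share of all genes called under these settings is not given here, so the lower counts are no result about the members. Markers of some cells that hold these carriers cycled in NRF too, namely 5 of 5 for endothelium and 3 of 6 for astrocytes (beside 27.7% of genes). In DRF, 1 and 0 of these were called (beside 0.813%). Of the neuron markers 0 of 5 were called in NRF, and of the markers of GABA neurons 0 of 3. The part of these cells in the carriers' rhythms was not tested.

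**Figure D2:**
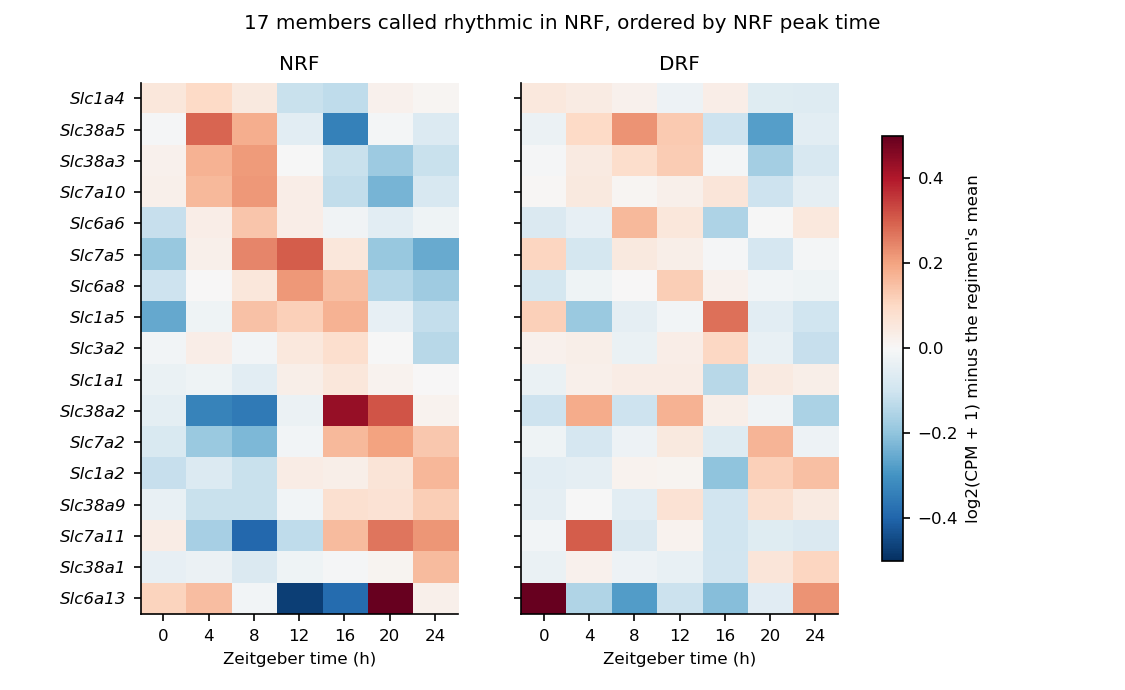
Mean log2(CPM + 1) of the 17 members called rhythmic in NRF, minus each regimen's own mean, at 7 time points (n = 4 mice each), ordered by NRF peak time; colours are limited to 0.5 in either direction. The NRF panel turns from high by day in the upper rows to high by night in the lower rows, and the DRF panel is paler, with a median amplitude of 0.0626 against 0.178.

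A call in one regimen alone does not show that the rhythm differs, so limma tested regimen by 24-h cosine and sine terms on log2(CPM + 1). For 6 of the 54 members (11.1%) this test passed an adjusted p-value of 0.05, beside 10.9% of the 16243 genes tested. The 6 were Slc7a5, Slc38a2, Slc7a11, Slc7a10, Slc7a1 and Slc7a4, of the Slc7 and Slc38 families, which hold 12 and 11 of the 54 members. No Slc1, Slc3, Slc6, Slc36 or Slc43 member was among them with all mice, though Slc43a2, Slc1a5 and Slc36a4 were near the threshold (adjusted p = 0.0638, 0.0763 and 0.0784). Slc1a5 was called without replicate 4, and Slc1a4, Slc36a4 and Slc6a16 without replicate 2. The share called was near that of all genes, so the split by family is no result about these families. The size given for each is the length of the difference vector between both fitted cosines on the log2 scale.

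The difference was 0.26 for Slc7a5 (adjusted p = 6.22e-06), 0.44 for Slc38a2 (adjusted p = 4.77e-05), 0.41 for Slc7a11 (adjusted p = 0.00101) and 0.18 for Slc7a10 (adjusted p = 0.00825). Slc7a1 and Slc7a4 followed with 0.13 (adjusted p = 0.0396) and 0.14 (adjusted p = 0.0457). Slc7a5, Slc38a2 and Slc7a11 were called under all 14 alternatives run for each of them. Slc7a10 was lost without replicate 3 (adjusted p = 0.0799) and without replicate 4 (adjusted p = 0.237), and Slc7a1 without replicate 1, 3 or 4 and on the deposited scale (adjusted p = 0.13 to 0.361). Slc7a4 was lost under 10 of 14 alternatives, among them leaving out the libraries that stood apart (0.099, adjusted p = 0.195). Among cell markers, with all libraries, the rhythm differed for 1 of 6 of astrocytes, Aldh1l1 (0.25, adjusted p = 2.73e-05). It differed for 2 of 5 of endothelium, Flt1 and Slco1a4 (0.22 and 0.28), and 2 of 5 of oligodendrocytes, Mag and Mog (0.25 and 0.25). Of 3 markers of their precursors Gpr17 and Pdgfra were called (0.26 and 0.13), and of 4 microglia markers P2ry12 (0.30). Of neuron markers 0 of 5 were called, and the share of all genes was 10.9%. The part of these cells was not tested.

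In DRF, Slc38a2 had 159, 140, 152 and 164 CPM at ZT4, when NRF mice had 111, 101, 111 and 108 CPM. At ZT16 the order was the other way, with 172, 159, 123 and 107 CPM in DRF against 180, 202, 175 and 178 CPM in NRF, and the lower DRF values are those of the libraries that stood apart. Slc7a11 likewise had 73.2, 65.1, 71.7 and 67.7 CPM at ZT4 in DRF and 53.8, 49.1, 52.3 and 53.0 CPM in NRF, with no overlap. Counted from the start of food access, ZT4 in DRF and ZT16 in NRF are each 4 h into feeding. Slc38a2 had 154 ± 10.5 CPM there in DRF and 184 ± 12.2 CPM in NRF, the highest means of both regimens, but in DRF the mean at ZT12, 152 ± 11.6 CPM, was equal within the spread. Slc7a11 had its highest DRF mean there, 69.5 ± 3.71 CPM, whereas in NRF its 65.6 ± 5.39 CPM at ZT16 was below the means at ZT20 (71.9 ± 16.7 CPM) and ZT24 (68.6 ± 7.40 CPM). These values are descriptions, and neither member was called rhythmic in DRF.

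Slc7a1, the arginine and lysine carrier CAT1 (NCBI Gene 11987, chromosome 5 from 148327410 to 148399904), had 90.4, 91.3, 91.3 and 96.1 CPM at ZT0 in DRF and 72.1, 70.6, 79.6 and 86.0 CPM in NRF. Its means at ZT24 were 85.9 ± 5.70 CPM in DRF and 85.1 ± 0.89 CPM in NRF, with overlap between the regimens in the other mice of that clock time. Slc7a4, a member related to the cationic carriers (NCBI Gene 224022, chromosome 16 from 17572018 to 17576890), ranged from 36.6 ± 3.15 CPM at ZT20 to 43.0 ± 1.89 CPM at ZT8 in NRF. In DRF its highest mice were replicates 3 and 4 of ZT16, at 45.6 and 51.7 CPM, the libraries that stood apart.

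**Figure D3:**
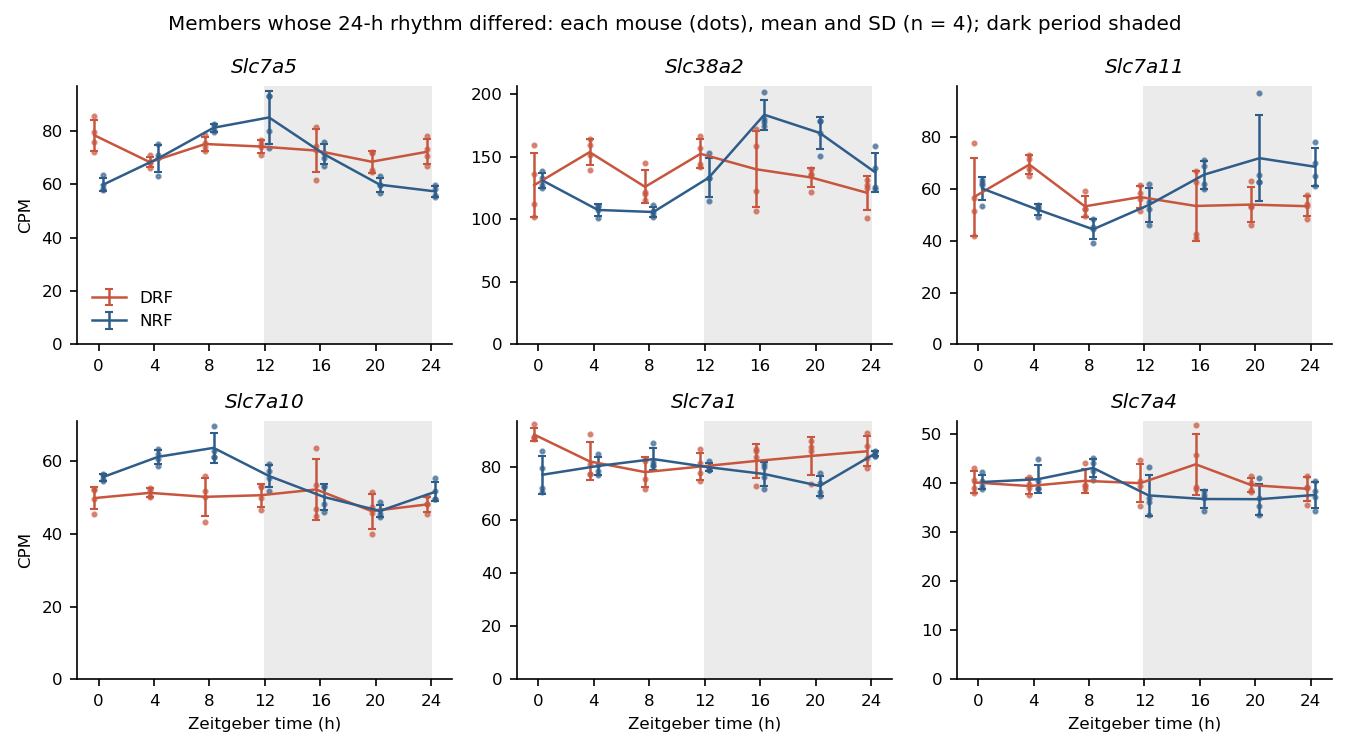
CPM of the 6 members whose 24-h rhythm differed between regimens, against zeitgeber time; dots are mice, lines and bars the mean and SD of 4 mice, and the dark period is shaded. NRF rises and falls in Slc7a5, Slc38a2, Slc7a11 and Slc7a10, while Slc38a2 and Slc7a11 in DRF are highest at ZT4.

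The second comparison asked whether the level over the day differed. The mean over the 7 time points differed for 6 of the 54 members (11.1%), beside 10.3% of the 16243 genes tested with limma. It was higher in DRF for 4 members, Slc7a5, Slc7a14, Slc7a1 and Slc38a10 (7.41%, beside 5.53% of genes), and lower for 2, Slc7a10 and Slc38a5 (3.70%, beside 4.82%). The median difference over the members was 0.017 on the log2 scale, and over all genes tested -0.0022. Less RNA per cell and fewer cells of a type cannot be told apart in bulk tissue.

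Slc7a10 fell by 0.14 on the log2 scale in DRF (SE 0.027, adjusted p = 0.00162). The lowest, median and highest mice were 40.1, 50.1 and 63.7 CPM in DRF and 44.8, 55.2 and 69.7 CPM in NRF, and 2 of the 28 DRF mice lay above the NRF median. Slc38a5, the glutamine carrier SNAT5 (NCBI Gene 209837, chromosome X from 8271381 to 8280179), fell by 0.18 (SE 0.046, adjusted p = 0.00771), from a mean of 3.01 ± 0.64 CPM in NRF to 2.53 ± 0.55 CPM in DRF over 28 mice each. The promoter with the E-box printed above is that of Slc38a5. Of 6 astrocyte markers, Aldh1l1 and Sox9 were higher in DRF (0.09 and 0.12 on the log2 scale) and Aqp4 decreased by 0.21, with a summed level of 678 to 820 CPM in DRF and 665 to 811 CPM in NRF and no marker at 0. Of 5 oligodendrocyte markers 2 were lower in DRF, Mog by 0.15, and of the 4 thalamus markers Ramp3 and Tcf7l2 fell by 0.57 and decreased by 0.46. Neuron markers went both ways, with 1 of 5 higher in DRF and 2 lower. Lower in DRF were also 1 of 5 endothelial, 1 of 5 pericyte, 1 of 4 microglial and 1 of 7 anterior hypothalamus markers. Of 3 markers of oligodendrocyte precursors 1 was higher. The part of these cells and regions in the members' differences was not tested.

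Slc7a5 was higher in DRF by 0.085 (SE 0.024, adjusted p = 0.0183), with 22 of 28 DRF mice above the NRF median. ZT0 and ZT24 are the same clock time and both enter this mean, and without ZT24 the difference was 0.045 (adjusted p = 0.289), while without replicate 3 or 4 the adjusted p was 0.167 or 0.187. Slc7a14, a member related to the cationic carriers and known from neurons (NCBI Gene 241919, chromosome 3 from 31202854 to 31310567), was higher by 0.074 (SE 0.022, adjusted p = 0.0240), with a lowest, median and highest mouse of 175, 221 and 246 CPM in DRF and 186, 209 and 246 CPM in NRF. Its reads could not be resolved into whole numbers, so its CPM rests on an annotated length. Slc7a14 lost this call under 3 of 14 alternatives, without replicate 1, 3 or 4 (adjusted p = 0.0713 to 0.125). Slc7a1 was higher by 0.072 (SE 0.024, adjusted p = 0.0435) and lost this call under 5 of 14 alternatives, with its value down to 0.032 when library trends were removed (adjusted p = 0.454).

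Slc38a10, the carrier SNAT10 (NCBI Gene 72055, chromosome 11 from 120103951 to 120151351), was higher in DRF by 0.056 (SE 0.018, adjusted p = 0.0323). It lost this call under 7 of 14 alternatives, with a value of 0.038 without the libraries that stood apart (adjusted p = 0.0778) and down to 0.026 with library trends removed (adjusted p = 0.163). Without those libraries 10 members were called, beside 10.2% of genes. They were 3 lower in DRF, Slc7a10, Slc38a5 and Slc38a3 (beside 5.1% of genes), and 7 higher, Slc7a5, Slc7a14, Slc7a1, Slc1a3, Slc7a2, Slc38a1 and Slc38a9 (beside 5.14%). In the abundant carriers not called with all mice, the differences were 0.024 (SE 0.031) for Slc1a2, 0.033 (SE 0.018) for Slc1a3, -0.017 (SE 0.024) for Slc6a11 and -0.039 (SE 0.023) for Slc6a9. Of the 6, Slc7a10 alone was called under all 14 alternatives, and without replicate 3 of each group it was the 1 member called.

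**Figure D4:**
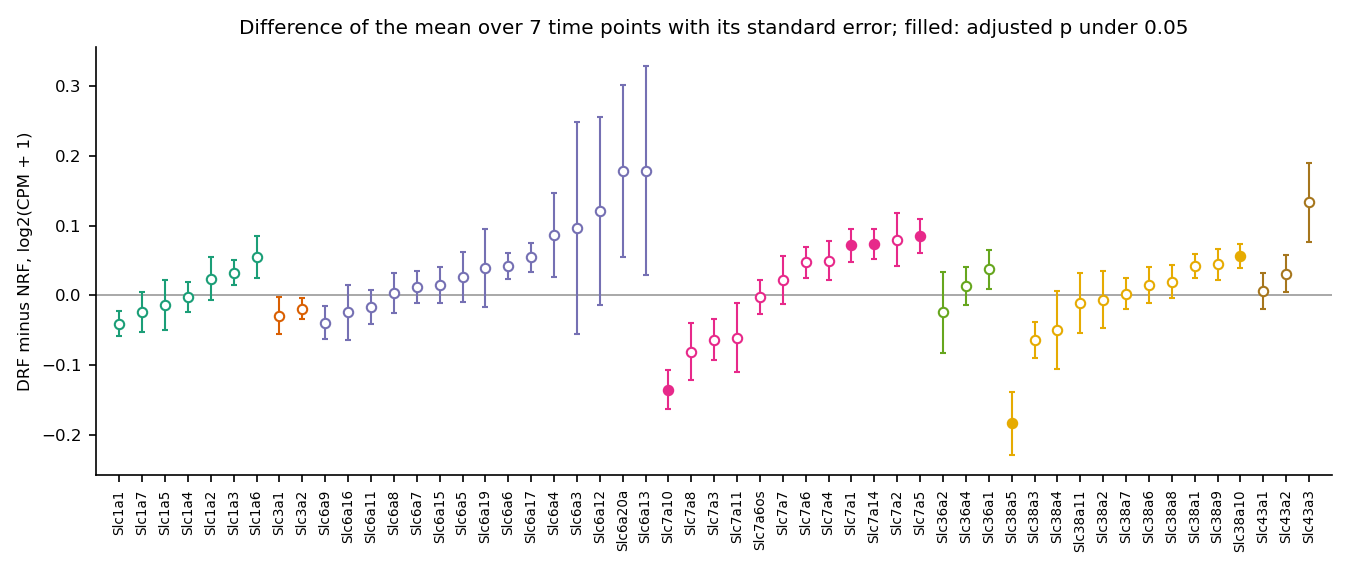
Difference DRF minus NRF in log2(CPM + 1), averaged over 7 time points, with its standard error for 53 members by family; filled symbols have an adjusted p-value under 0.05 in limma. Slc7a10 and Slc38a5 are the filled symbols below 0, and Slc7a1, Slc7a14, Slc7a5 and Slc38a10 those above it.

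At single time points, groups of 4 mice were compared within the same limma fit over all 56 mice. At ZT0, 4 of the 54 members were called and all were higher in DRF (7.41%, beside 2.34% of genes higher in DRF and 4.41% called in either direction). These were Slc7a5 by 0.38 (SE 0.064, adjusted p = 1.37e-04), Slc1a5 by 0.36 (SE 0.095, adjusted p = 0.0173), Slc7a1 by 0.26 (SE 0.063, adjusted p = 0.00950) and Slc7a6 by 0.25 (SE 0.059, adjusted p = 0.00840). In each the DRF and NRF mice did not overlap. Slc7a6, the light chain of the y+LAT2 exchanger (NCBI Gene 330836, chromosome 8 from 106168219 to 106198714), had 26.2, 26.0, 26.8 and 24.6 CPM in DRF and 22.0, 22.9, 21.5 and 20.2 CPM in NRF. Slc1a5 had 3.25, 3.68, 3.91 and 2.96 CPM in DRF and 2.26, 2.41, 2.46 and 2.68 CPM in NRF.

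ZT24 gave a second set of mice at that clock time, and there 1 member was called, beside 0.289% of genes. Slc7a5 was higher in DRF by 0.33 (SE 0.064, adjusted p = 0.00823), with 66.8, 70.8, 78.1 and 73.2 CPM in DRF and 59.8, 55.2, 56.0 and 58.4 CPM in NRF. The differences at ZT24 were 0.04 (SE 0.059) for Slc7a6, 0.012 (SE 0.063) for Slc7a1 and 0.0054 (SE 0.095) for Slc1a5. Slc7a5 at ZT0 was called under all 12 alternatives, and at ZT24 it was lost without replicate 2 (adjusted p = 0.0824) or 3 (adjusted p = 0.374). Without replicate 1 or replicate 3 of each group, Slc7a5 alone was called at ZT0. Of 5 endothelial markers, Cldn5 and Ly6c1 decreased by 0.38 and fell by 0.29 in DRF at ZT0, with a summed level of 149 to 158 CPM in DRF and 165 to 175 CPM in NRF and no marker at 0. Slc7a5 is also known from brain endothelium, and the part of these cells was not tested.

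At ZT4, 2 members were called (3.70%, beside 3.93% of genes), Slc38a2 as higher in DRF by 0.51 (SE 0.11, adjusted p = 0.00529) and Slc7a10 as lower. Slc7a10 fell by 0.25 (SE 0.072, adjusted p = 0.0390), with 52.2, 52.7, 50.4 and 50.1 CPM in DRF and 60.8, 63.4, 58.9 and 62.1 CPM in NRF. At ZT8, Slc7a10 alone was called, where it fell by 0.34 (SE 0.072, adjusted p = 0.0443), beside 0.117% of genes. At ZT4 Slc7a10 lost its call without any 1 replicate number (adjusted p = 0.0748 to 0.213), and at ZT8 without replicate 1, 3 or 4 (0.0818 to 0.417), and at both with libraries centred on their median. Slc38a2 at ZT4 had an adjusted p of 0.0674 without replicate 4. Slc38a2, Slc38a3, Slc38a5, Slc6a4, Slc7a10 and Slc7a11 were called at ZT4 without the libraries that stood apart (beside 6.49% of genes), where those libraries had entered only through the shared estimate of spread. For Slc6a4 that value rests on 1 mouse, since DRF had 0.197, 2.59, 0.0652 and 0.294 CPM and NRF 0.0946, 0.0303, 0.193 and 0.0643 CPM.

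At ZT12, 0 members were called by limma (beside 1.49% of genes), and at ZT20 also 0 (beside 1.12%). Some members had an unadjusted p-value under 0.05 at both times, so 0 calls do not show that no member differed. At ZT20, Slc38a5 was the nearest, with 2.19, 1.499, 1.62 and 2.30 CPM in DRF and 2.72, 2.69, 2.59 and 3.81 CPM in NRF (a log2 difference of -0.45, SE 0.12, adjusted p = 0.0502). The DRF and NRF mice did not overlap. Without the libraries that stood apart, Slc38a2 and Slc38a5 were called there (beside 2.25%).

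At ZT16, 8 members were called (14.8%, beside 19.9% of genes). The 3 lower in DRF were Slc1a1, Slc1a3 and Slc38a2 (beside 13.4% of genes), and the 5 higher were Slc1a4, Slc1a6, Slc7a4, Slc38a10 and Slc43a2 (beside 6.58%). The glutamate carrier Slc1a6 (EAAT4) differed most among the higher ones, by 0.30 (SE 0.079, adjusted p = 0.00766), with 30.1, 31.03, 33.6 and 33.6 CPM in DRF and 29.9, 26.7, 22.4 and 24.6 CPM in NRF. Slc1a1 fell by 0.24 (SE 0.048, adjusted p = 0.00192), with 96.7, 89.8, 81.3 and 83.0 CPM in DRF and 97.7, 110, 104 and 103 CPM in NRF. Without DRF replicates 3 and 4 of this time point, the libraries that stood apart, 0 of the 54 members were called (beside 0.203% of genes). Some still had an unadjusted p-value under 0.05. The differences were then 0.24 for Slc1a6, -0.15 for Slc1a1 and -0.15 for Slc38a2, and between -0.030 and 0.13 for the other 5.

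**Figure D5:**
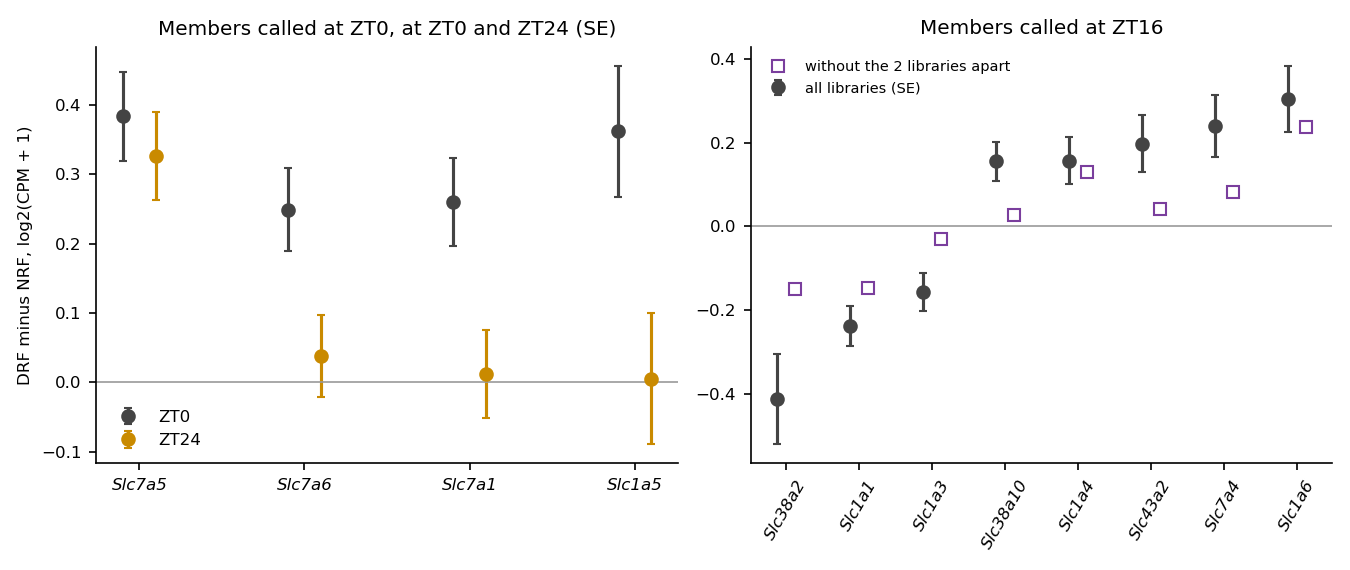
Left, differences DRF minus NRF in log2(CPM + 1) with standard errors for the 4 members called at ZT0, at ZT0 and at ZT24; right, the 8 members called at ZT16 with all libraries (circles, standard errors) and without the 2 libraries that stood apart (open squares). Slc7a5 holds at 0.38 and 0.33 at ZT0 and ZT24, and most values at ZT16 move toward 0 without those libraries.

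Other genes of the same pathways were taken as lists, chosen with earlier results of these data known. The first list held 11 carriers for vesicle loading and other uptake, such as Slc17a6 and Slc32a1, which fill synaptic vesicles with glutamate and GABA. Of these, 0 were called for rhythm in NRF (beside 27.7% of genes), rhythm difference (beside 10.9%) or mean difference (beside 10.3%). At ZT16, 2 of them, Slc17a8 and Slc5a7, were called lower in DRF with all libraries (beside 13.4% of genes). Of 21 enzymes that make or break down transmitters, 20 were tested. Of these, 4 were rhythmic in NRF (beside 27.7% of genes), 1 in DRF (beside 0.813%), and 1, Shmt1, differed in rhythm (beside 10.9%). Glul (glutamine synthetase) was higher in DRF over the day by 0.12 (SE 0.027, adjusted p = 0.0043), and Maob (monoamine oxidase B) fell by 0.17 (SE 0.056, adjusted p = 0.0438). Of 12 genes of amino acid sensing, 4 were rhythmic in NRF (beside 27.7%) and 1, Castor1, differed in rhythm (beside 10.9%). Over the day 5 of the 12 were higher in DRF (beside 5.53% of genes), Eif2ak4, Mtor, Rptor, Castor2 and Sesn3, by 0.082 to 0.20, and Atf4 fell by 0.077 (SE 0.022, adjusted p = 0.0181), with a median of 0.058 over the list beside -0.0022 over all genes. The members counted as known ATF4 targets were Slc7a11, Slc7a5, Slc3a2, Slc38a2, Slc7a1, Slc1a4, Slc1a5 and Slc6a9, a list made with earlier results of these data known. Of these 8, 6 were rhythmic in NRF (beside 27.7% of genes), 4 differed in rhythm (beside 10.9%) and 2 were higher in DRF over the day (beside 5.53%), with a median difference of -0.010.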

How the data were processed

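Polyadenylated RNA of the anterior hypothalamus was sequenced as paired reads on a BGISEQ platform. The submitters' processing notes name HISAT2, Bowtie2 and RSEM with the mm10 and GRCm38.p6 builds, and the study, whose methods give the tool versions, adds read cleaning with SOAPnuke and TMM normalization in edgeR. The deposited table is named TPM, but the authors' values are not proportional to reads, so they were treated as a score: log2(CPM + 1) over gene length, with 1 fixed total per mouse. Inverting this recovered log2(CPM + 1) for 17542 genes. For 15086 of them, 90% or more of the values lay within 0.02 of a whole read. Of the members, 47 resolved into whole reads and 6 into reads with 2 decimals. Among the genes that passed the value filter, 16243 had log2(CPM + 1). Since a pseudocount of 1 enters that scale, it understates the change of scarce genes.

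For rhythm, JTK_CYCLE and a Lomb-Scargle periodogram (20 to 28 h) were run per regimen on deposited values of genes reaching 1 in 80% of the mice. Their p-values were joined with Fisher's method, with Benjamini-Hochberg adjustment and a threshold of 0.05. Differences between regimens were tested with limma 3.58.1 on log2(CPM + 1), with 14 groups for means and time points and with regimen by 24-h cosine and sine terms for rhythm, adjusted over all genes tested. Python 3.11.15 and SciPy 1.17.1 were used. The rhythm tests and the limma fits for means and rhythm differences were tested on simulated data. Other steps, the recovery of CPM among them, were not tested in this way. Intervals and SE cover the spread between mice, which the study describes as biological replicates. Alternatives were other scales, pseudocounts, filters, weights, blocks, left-out replicates and time points. Leaving out the libraries that stood apart and removing library trends were chosen after the data were seen.

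Named with full values were members called in a comparison, the 10 with the lowest adjusted p among those rhythmic in a regimen, the highest per length in each family, and classic carriers. Members and lists were chosen with earlier results of these data known. The values of 1 member, counted among the 54, and of 1 marker are not reported here. Replicate numbers did not pair the mice. Sequences are from RefSeq (GRCm38.p6), and gene coordinates from RefSeq on GRCm38. The promoter windows of Slc7a11 and Slc7a10 lie inside the intervals given for those genes, before a start within them.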

Additional observations from a re-analysis of the deposited data

Results flagged for a closer look

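In DRF at ZT0, Slc7a1 in replicate 4 stood off from the other mice of its group, at 96.1 CPM against 90.4 to 91.3 CPM. The gap was 0.845 of the range of the group, above Dixon's 95% critical value for 4 samples. It was the 1 flag among 32 groups tested, where chance gives about 1 in 20.

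The 24-h rhythm differed between DRF and NRF by limma for 6 members, with differences on the log2 scale of 0.13 for Slc7a1, 0.145 for Slc7a4, 0.183 for Slc7a10, 0.264 for Slc7a5, 0.414 for Slc7a11 and 0.44 for Slc38a2.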

How the results depend on the processing

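For most settings, the counts of members below are given without the share of all genes called under the same setting. Their shifts are therefore no result about the members. The count of members rhythmic in NRF was 11 without ZT16 and 10 to 14 without 1 replicate, against 17. In DRF it was 1 in place of 0 without ZT16, without the libraries that stood apart, with library trends removed and under a limma cosine with the replicate block. Members with a rhythm difference numbered 12 with library trends removed and 3 to 8 without 1 replicate, against 6. Those with a mean difference numbered 16 with array weights, 11 without ZT16, 10 without the libraries that stood apart and 1 to 8 without 1 replicate, against 6. At ZT0 there were 9 with array weights, 7 with trends removed and 1 to 4 without 1 replicate, against 4. At ZT4 there were 1 on the deposited scale, 1 with centred libraries, 7 with weights, 6 without the libraries that stood apart, 5 with trends removed and 0 to 1 without 1 replicate, against 2. At ZT8 there were 0 on the deposited scale, 0 with centred libraries, 5 with weights and 0 to 1 without 1 replicate, against 1. At ZT12 there were 2 with trends removed and 0 to 1 without 1 replicate, against 0. At ZT16 there were 3 with weights, 0 without the libraries that stood apart, 5 with trends removed and 0 to 16 without 1 replicate, against 8. At ZT20 there were 1 with a pseudocount of 0.1, 6 with weights, 1 with the replicate block, 2 without the libraries that stood apart, 4 with trends removed and 0 to 1 without 1 replicate, against 0. At ZT24 there were 0 to 1 without 1 replicate, against 1. The causes were not tested. Same-numbered mice did not deviate together (median correlation 0.00593, over 0.1 in 6 of 28 pairs of the same time point), so the replicate block is no pairing. With it, 5 members differed in rhythm and 6 in the mean. Among single members, 97 of 480 repeated tests lost their call. Of the differences in the mean or at a time point, 0 changed direction. The rhythm calls and rhythm differences among the 480 have no direction that could change. On the deposited scale 72.0% of all genes called in the mean difference were higher in DRF, against 53.4%, and at ZT16 49.3% with centred libraries, against 33.0%; the members' split in the mean was 4 and 2 on the deposited scale too. With 4 mice per group, differences much smaller than the spread between mice could not be detected.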
